A study of Danio rerio with 6 samples.

Results

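The transcription factors sox32 (ENSDARG00000100591), sox17 (ENSDARG00000101717), gata5 (ENSDARG00000017821) and gata6 (ENSDARG00000103589) were followed in zebrafish embryos at the start of gastrulation. They were chosen by identifier as the factors that specify endoderm, and are 4 of the 32266 genes listed in each library. RNA-seq was done on 6 libraries, each from 25 whole embryos of the strain Tubingen (TU) pooled at 50% epiboly, the stage at which the cell sheet covers the upper part of the yolk. WT embryos gave 3 libraries. The other 3 came from MZsmad4a embryos, which lack both the maternal and the zygotic product of smad4a because of a CRISPR frameshift deletion. The comparison asks how the endoderm factors stand in embryos without Smad4a, the shared partner of the Smads that carry Nodal and BMP signals. The mutant embryos have mutant mothers, so the effects of genotype and of clutch cannot be told apart.

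Endoderm in zebrafish arises at the blastoderm margin, where Nodal signals reach the cells closest to the yolk. Nodal acts through mixl1 and gata5, together with eomesa, to switch on sox32, a Sox factor that is required for all endoderm. With the maternal factor pou5f3, sox32 then switches on sox17, a SoxF factor that marks committed endoderm and also the dorsal forerunner cells, the precursors of Kupffer's vesicle. gata5 and gata6 encode related zinc finger factors that act in endoderm and in the heart-forming mesoderm. In the RefSeq annotation of the assembly GRCz12tu, sox17 and sox32 are near neighbours on the same chromosome, with 1 annotated gene between them.

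The libraries held 9807865 to 20833491 expected counts, the estimated read counts of RSEM. Levels are given as CPM, expected counts relative to a library total scaled by the TMM method, and as TPM, which also corrects for transcript length and so can be compared between genes. A level of 3 counts, the smallest taken as measurable, was 0.143 to 0.283 CPM. WT replicate 1 was the shallowest library. The targeted gene smad4a stood at 54.7, 62.3 and 60.7 CPM in the WT libraries and at 13.1, 15.3 and 14.6 CPM in the MZsmad4a libraries, so each library lay on the side of its label. The submitters call the libraries of a genotype biological replicates, and libraries of the same genotype correlated at 0.968 to 0.977 over genes, against 0.958 at most between genotypes.

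sox17 was the member with the lowest level and the widest gap between the genotypes, 4.55-fold lower in MZsmad4a embryos in the fit over all genes. sox32 and gata5 were lower in every MZsmad4a library by smaller amounts, and gata6 overlapped between the genotypes. None of the 4 members passed an adjusted p of 0.01 in edgeR's quasi-likelihood test over 15723 genes, in which 0.49% of genes were called lower and 0.223% higher in MZsmad4a. At an unadjusted p under 0.05 the same edgeR test gave 3 of the 4, all lower, against 8.82% of all genes tested called lower and 8.71% called higher in this way. DESeq2 called 1 member lower at 0.01, sox17, where 1.93% of genes were called lower and 1.77% higher, and limma on log2(TPM + 1) called 0, where 0.572% were lower and 0.159% higher. In 3 of the 4 genes every MZsmad4a library was below every WT library, as was the case for 11.9% of the genes tested. Because each library is a pool of whole embryos, fewer cells of a type and less RNA per cell cannot be told apart.

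**Figure D1:**
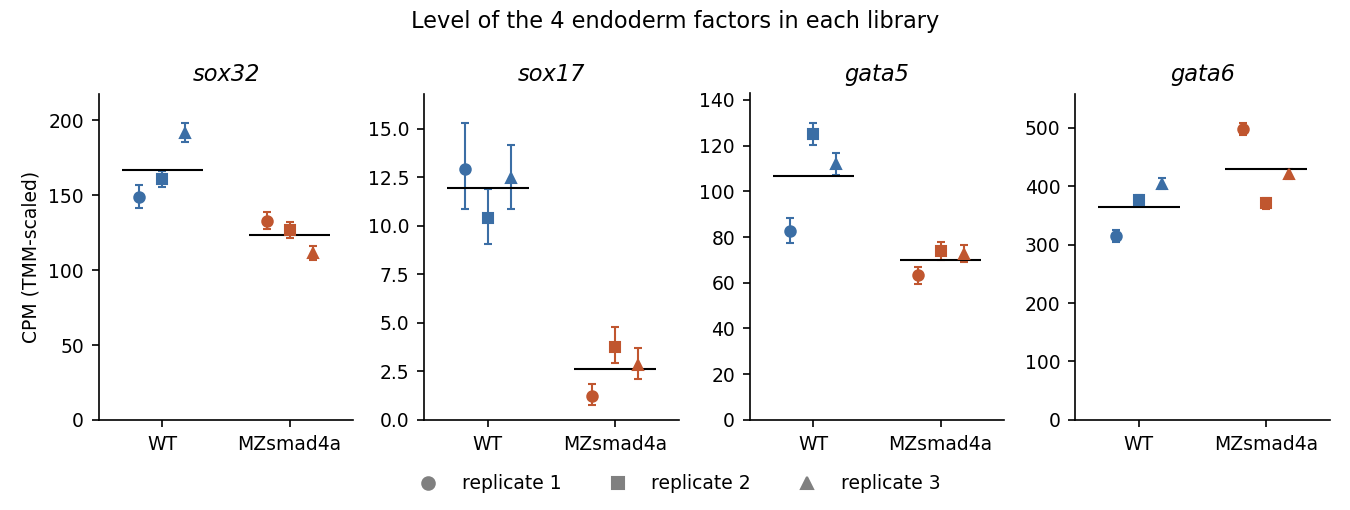
Level of sox32, sox17, gata5 and gata6 in each library, in CPM on axes that start at 0. Points are libraries with exact Poisson 95% intervals of the count, shapes give the replicate number and black lines the mean of the 3 libraries of a genotype. The MZsmad4a libraries lie below the WT libraries for sox32, sox17 and gata5, with sox17 at 1.21 to 3.76 against 10.4 to 12.9 CPM, and the genotypes overlap for gata6.

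On the length-corrected scale, the order of the members in WT libraries was gata6, sox32, gata5 and sox17. gata6 was at 319, 350 and 388 TPM and sox32 at 269, 268 and 330 TPM in WT replicates 1 to 3, so the ranges of these neighbours overlapped. gata5 was at 72.6, 101 and 92.4 TPM and sox17 at 10.1, 7.43 and 9.11 TPM, each apart from its neighbours in the order. In MZsmad4a replicates 1 to 3, gata6 was at 450, 342 and 376 TPM and sox32 at 213, 209 and 178 TPM, and here their ranges did not overlap. gata5 was at 48.4, 58.7 and 55.5 TPM and sox17 at 0.82, 2.64 and 1.92 TPM in the same libraries. The order of the members was thus the same in all 6 libraries. By rank of TPM among all genes of a library, sox32 stood between 449 and 587 in WT and between 740 and 879 in MZsmad4a, gata6 between 324 and 486 over the 6 libraries, and sox17 between 8151 and 14592.

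sox32, which sits at the head of the endoderm programme, was abundant in both genotypes. Its level was 149, 161 and 192 CPM in the WT libraries and 133, 127 and 111 CPM in the MZsmad4a libraries. Every MZsmad4a library was below every WT library, and in the nearest pair, MZsmad4a replicate 1 and WT replicate 1, the exact Poisson 95% intervals of the counts, 128 to 138 and 142 to 156 CPM, did not meet. Reads without molecular identifiers are not independent molecules, so these intervals hold counting error alone. The means were 167 ± 22.0 CPM in WT and 124 ± 11.1 CPM in MZsmad4a (SD, n = 3 each). The log2 fold change of sox32 was -0.44 (standard error 0.12, 95% interval -0.71 to -0.16), and it did not pass the test (edgeR adjusted p = 0.108).

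sox17, the gene that sox32 switches on, was counted 137, 218 and 228 times in WT replicates 1 to 3 and 21, 68 and 54 times in MZsmad4a replicates 1 to 3. As CPM this was 12.9, 10.4 and 12.4 in WT and 1.21, 3.76 and 2.84 in MZsmad4a. The genotypes were well apart, since the highest MZsmad4a library was at 3.76 CPM and the lowest WT library at 10.4 CPM. The counting intervals of the 3 WT libraries overlapped, whereas in MZsmad4a the interval of replicate 1, 0.750 to 1.85 CPM, did not reach those of replicates 2 and 3, 2.92 to 4.76 and 2.13 to 3.70 CPM. MZsmad4a replicate 1 was thus the lowest library for sox17 beyond counting error, although it was not the shallowest.

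The mean of sox17 was 11.9 ± 1.34 CPM in WT and 2.60 ± 1.29 CPM in MZsmad4a (SD, n = 3 each). The log2 fold change was -2.19 (standard error 0.36, 95% interval -3.02 to -1.35), and 0.999% of the genes tested had a lower one. It missed the threshold of 0.01 and passed that of 0.05 (edgeR adjusted p = 0.0204), at which 1.67% of genes were called lower and 1.26% higher. The call depended on the method, with an adjusted p of 2.51e-07 in DESeq2 and of 0.00404 in edgeR with no filter on low counts, within a range of 2.51e-07 to 0.0703 over all alternatives run. With 1 library left out, the edgeR adjusted p of sox17 was 0.0146 without MZsmad4a replicate 1 and 0.0384 without MZsmad4a replicate 2, and it missed 0.05 in the other 4 fits, at 0.0703 without MZsmad4a replicate 3 and 0.0603, 0.0621 and 0.0544 without WT replicates 1, 2 and 3. The log2 fold change was -1.85 without MZsmad4a replicate 1.

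The step from sox32 to sox17 was read within each library as the ratio of their TPM. In pools of whole embryos this ratio takes in every cell that holds either RNA, so it does not measure the step within endoderm alone. sox17 amounted to 3.74, 2.77 and 2.76% of the sox32 TPM in the WT libraries and to 0.386, 1.26 and 1.08% in the MZsmad4a libraries. sox17 was therefore lower relative to sox32 in each MZsmad4a library, and most so in replicate 1. On the log2 scale of CPM the ratio was -3.79 ± 0.24 in WT and -5.64 ± 0.88 in MZsmad4a (SD, n = 3 each), a difference of -1.85. The two-sided p from exact permutation was 0.1, no smaller value being possible with 3 libraries a genotype, and 0.15 after Benjamini-Hochberg adjustment over the 3 ratios examined, so this test cannot place the difference past 0.05. With 1 library left out, the difference in the sox17 to sox32 ratio was -2.15 to -1.34, the smaller size being that without MZsmad4a replicate 1.

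**Figure D2:**
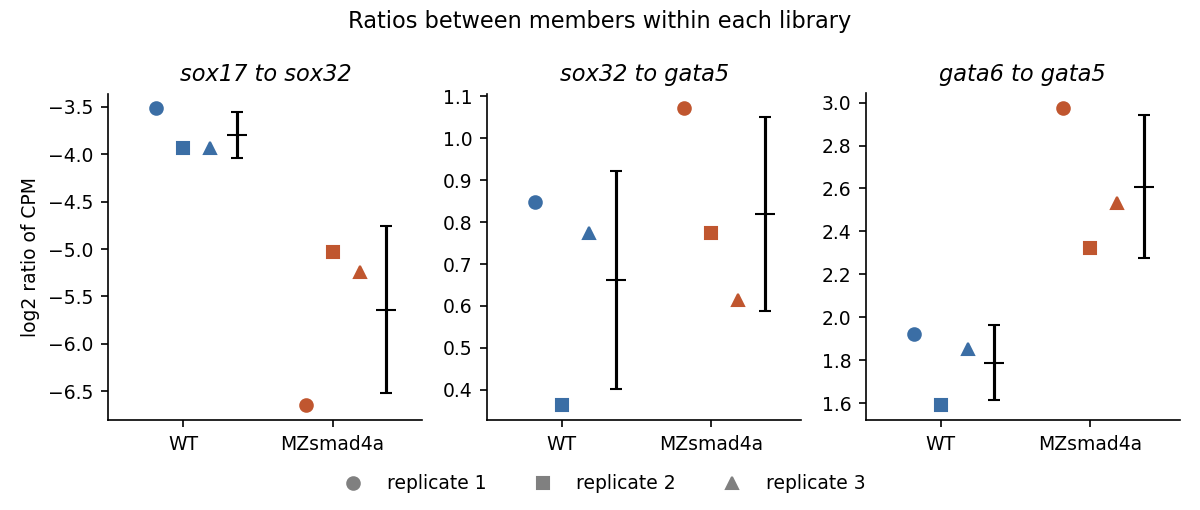
Ratios between members within each library, as the log2 ratio of CPM. Points are libraries, shapes the replicate number, and bars the mean and SD of 3 libraries. The MZsmad4a libraries lie below the WT libraries for sox17 to sox32 (means -5.64 and -3.79) and above them for gata6 to gata5 (means 2.61 and 1.79), while the genotypes overlap for sox32 to gata5.

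gata5, which acts upstream of sox32 in zebrafish endoderm, was at 82.7, 125 and 112 CPM in the WT libraries and at 63.2, 73.9 and 72.7 CPM in the MZsmad4a libraries. The genotypes did not overlap, but the WT libraries were spread widely, and WT replicate 1 lay closer to the MZsmad4a libraries than to WT replicate 2. The means were 107 ± 21.6 CPM in WT and 69.9 ± 5.88 CPM in MZsmad4a (SD, n = 3 each). The log2 fold change of gata5 was -0.61 (standard error 0.16, 95% interval -0.97 to -0.25), which did not pass the test (edgeR adjusted p = 0.0911). The DESeq2 adjusted p was 0.0237, and the range over all alternatives was 0.0237 to 0.225.

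gata5 and sox32 were also compared within each library. Their log2 ratio, sox32 to gata5, was 0.66 ± 0.26 in WT and 0.82 ± 0.23 in MZsmad4a (SD, n = 3 each). The difference of 0.16 was within the spread of the libraries (two-sided p = 0.6 by exact permutation), and it was 0.01 to 0.26 with 1 library left out. With 3 libraries a genotype this does not show that the genes moved alike.

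gata6, the paralogue with overlapping roles in endoderm and heart, was at 314, 376 and 404 CPM in the WT libraries and at 497, 370 and 421 CPM in the MZsmad4a libraries. The genotypes overlapped, since MZsmad4a replicate 2 lay below WT replicates 2 and 3. The means were 365 ± 46.1 CPM in WT and 429 ± 63.8 CPM in MZsmad4a (SD, n = 3 each), with a log2 fold change of 0.23 (standard error 0.13, 95% interval -0.07 to 0.54, edgeR adjusted p = 0.419). The highest value came from MZsmad4a replicate 1, and without that library the log2 fold change of gata6 was 0.12. A log2 fold change as low as that of gata5 lies outside the interval of gata6.

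gata6 outweighed gata5 in every library, and more so in the MZsmad4a libraries. The ratio of gata6 to gata5 in TPM was 4.39, 3.48 and 4.19 in WT and 9.29, 5.83 and 6.77 in MZsmad4a. All MZsmad4a libraries were above all WT libraries, with the highest value again in MZsmad4a replicate 1. The log2 ratio of CPM was 1.79 ± 0.18 in WT and 2.61 ± 0.33 in MZsmad4a (SD, n = 3 each), so that they were 0.82 apart. Exact permutation gave a two-sided p of 0.1, again the smallest possible, and 0.15 adjusted over the 3 ratios. The difference was 0.64 to 0.96 with 1 library left out. gata6 made up 81.4, 77.7 and 80.7% of the summed gata5 and gata6 TPM in WT and 90.3, 85.4 and 87.1% in MZsmad4a. The sum itself overlapped, at 391, 451 and 480 TPM in WT and 498, 401 and 431 TPM in MZsmad4a.

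gata6 was also the only member annotated with several transcripts, 5 against 1 for each of the others. The mean transcript length that RSEM estimated for gata6 was 2024, 2025 and 2019 bases in the WT libraries and 1990, 2014 and 2006 bases in the MZsmad4a libraries. All MZsmad4a libraries were below all WT libraries, a pattern that was noticed after the values were seen. The same held for 5.47% of the 8426 tested genes whose estimated length varied.

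The members stood among the other genes of the Nodal pathway and the maternal factors as follows. The list of inducers of endoderm held 22 genes and also took in Nodal antagonists such as lft2. Of these 22 genes, 21 were matched and tested. In edgeR 0 were lower and 0 higher at 0.01, with 4 lower and 0 higher at an unadjusted p under 0.05. DESeq2 called 2 lower and limma 0. Over all genes, here and for the lists below, edgeR called 0.49% lower and 0.223% higher at 0.01. At an unadjusted p under 0.05 it called 8.82% lower and 8.71% higher. The shares lower and higher were 1.93% and 1.77% in DESeq2, and 0.572% and 0.159% in limma. The median log2 fold change of the list was -0.03, beside -0.01 over all genes tested. Among the direct activators of sox32 none passed the test. mixl1, a homeobox factor that acts with gata5 upstream of sox32, was at 56.3, 96.6 and 68.8 CPM in WT and 28.9, 55.6 and 60.3 CPM in MZsmad4a (log2 fold change -0.62, edgeR adjusted p = 0.329). The genotypes overlapped for mixl1, and MZsmad4a replicate 1 was again the lowest library. Of the pair of identifiers named EOMES, the family that includes eomesa, the expressed one, ENSDARG00000006640, had a log2 fold change of 0.21 (edgeR adjusted p = 0.719).

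The Nodal ligands upstream of the members did not pass the test either. ndr1 had a log2 fold change of 0.70 (edgeR adjusted p = 0.376) and ndr2 one of -0.34 (edgeR adjusted p = 0.591). The co-receptor tdgf1 had one of -0.03 (edgeR adjusted p = 0.941), and its sign turned to 0.06 without MZsmad4a replicate 1. For foxh1, the DNA-binding partner of the Nodal Smads, every MZsmad4a library was below every WT library, at 237, 292 and 309 against 320, 347 and 344 CPM, with a log2 fold change of -0.27 (edgeR adjusted p = 0.247).

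The Nodal-induced antagonist lft2 and the homeobox gene mxtx2 were the inducer-list genes that passed 0.05 but not 0.01 in edgeR. mxtx2 acts in the yolk syncytial layer. DESeq2 called both lower at 0.01 (DESeq2 adjusted p = 0.00048 for lft2 and 0.00042 for mxtx2). lft2 was at 13.0, 13.9 and 11.2 CPM in WT and 6.58, 7.07 and 5.52 CPM in MZsmad4a (log2 fold change -0.99, edgeR adjusted p = 0.0299). The log2 fold change of lft2 lay between those of gata5 and sox17. Its relative lft1, a Nodal antagonist of the same list, went the other way and did not pass (log2 fold change 0.33, edgeR adjusted p = 0.476). mxtx2 had 15, 66 and 42 counts in WT and 2, 6 and 9 counts in MZsmad4a (edgeR adjusted p = 0.0286), so that its level in MZsmad4a was near the floor. These passes at 0.05 did not last with fewer libraries, since the adjusted p was above 0.05 in 5 of the 6 edgeR fits with 1 library left out, for lft2 in all but that without WT replicate 3 (0.0465 to 0.108) and for mxtx2 in all but that without WT replicate 1 (0.0415 to 0.109).

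Genes listed as downstream of or beside sox32 were read in the same fit as sox17. The list is not confined to endoderm, since foxa2 and gata4, among others, also act elsewhere. Of 14 listed, 13 were matched and 12 tested, and edgeR called 0 lower and 0 higher at 0.01, with 2 lower and 1 higher at an unadjusted p under 0.05. DESeq2 called 2 lower, the chemokine genes cxcl12a and cxcl12b, and limma called 0. The median log2 fold change of these genes was 0.04, and the lowest was -1.22, that of gata4, against -2.19 for sox17. This order turned without MZsmad4a replicate 1, where gata4 was at -2.00 and sox17 at -1.85. foxa2, a forkhead factor of endoderm and axial mesoderm, had a log2 fold change of -0.20 (edgeR adjusted p = 0.609). foxa3 had one of 0.10 (edgeR adjusted p = 0.780), a sign that turned to -0.0062 when counts were scaled by library size only and to -0.041 without WT replicate 1. The pair of identifiers named CXCR4, whose family includes the endodermal chemokine receptor cxcr4a, had log2 fold changes of 0.22 (edgeR adjusted p = 0.364) and -0.15 (edgeR adjusted p = 0.846). Whether sox17 differed from these genes as a group was not tested.

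sox7 and sox18, the SoxF relatives of sox17 that act in blood vessels, were near the floor. sox7 had 2 to 8 counts a library and sox18 had 0 or 1, and neither passed the filter on low counts. Of 13 other Sox genes listed, 8 were tested, and edgeR called 0 lower and 0 higher at 0.01, with 0 lower and 5 higher at an unadjusted p under 0.05. DESeq2 called 2 higher and limma 0. The median log2 fold change of the 8 was 0.41, beside -0.01 over all genes tested. In 5 of the 8 every MZsmad4a library was above every WT library, as was the case for 11.8% of all genes tested. The direction in these 5 was opposite to that of sox17 and sox32. sox19a, a SoxB1 gene of the early neural plate, was at 379, 394 and 369 CPM in WT and 493, 542 and 501 CPM in MZsmad4a (log2 fold change 0.43, edgeR adjusted p = 0.0235). The adjusted p of sox19a was above 0.05 in 5 of the 6 edgeR fits with 1 library left out, all but that without MZsmad4a replicate 1 (0.0448 to 0.0980), and was 0.0748 when counts were scaled by library size only.

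Among the other Gata genes, gata2a fell, and gata3 and gata4 did not pass the test. Of 6 listed, 3 were tested, and edgeR called 1 lower and 0 higher at 0.01. gata2a, a factor of ventral non-neural ectoderm and blood, was at 108, 85.5 and 87.3 CPM in WT and 34.7, 41.0 and 48.1 CPM in MZsmad4a (log2 fold change -1.18, standard error 0.15, edgeR adjusted p = 0.00810). The genotypes were far apart for gata2a, although its edgeR adjusted p rose to between 0.0175 and 0.0443 when any 1 of the 6 libraries was left out, which ended the call at 0.01 each time. gata3, a gene of non-neural ectoderm, had a log2 fold change of 0.06 (edgeR adjusted p = 0.771). gata4, the third of the endoderm and heart Gata genes, was rare, with 36 to 58 counts in WT and 8 to 39 counts in MZsmad4a, and its log2 fold change of -1.22 did not pass (edgeR adjusted p = 0.318). It was -2.00 without MZsmad4a replicate 1 and -0.82 without MZsmad4a replicate 2, the lowest and highest values with 1 library left out.

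The cardiac and lateral mesoderm genes are not confined to the heart-forming domain of gata5 and gata6, and included genes too low to test. hand2 and nkx2.5 had 2 counts or fewer in every library. Of 8 listed, 4 were tested, and edgeR called 0 lower and 0 higher at 0.01, with 2 lower and 0 higher at an unadjusted p under 0.05. DESeq2 and limma called 0 each. The 2 genes were drl and lmo2. The median log2 fold change of the 4 tested genes was -1.18, beside -0.01 over all genes tested. tbx5a and tal1, also tested, had log2 fold changes of -0.25 (edgeR adjusted p = 0.796) and -0.92 (edgeR adjusted p = 0.429). lmo2 had only 3 to 22 counts a library. drl, a zinc finger gene of lateral mesoderm, was at 51.2, 53.9 and 42.0 CPM in WT and 3.75, 26.4 and 15.0 CPM in MZsmad4a (log2 fold change -1.70, edgeR adjusted p = 0.156). MZsmad4a replicate 1 was the lowest library for drl, as it was for sox17, gata5 and mixl1, while it was the highest for gata6. For sox32 and gata4 it was the highest of the MZsmad4a libraries, at 133 and 2.25 CPM, so the members did not share 1 pattern.

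**Figure D3:**
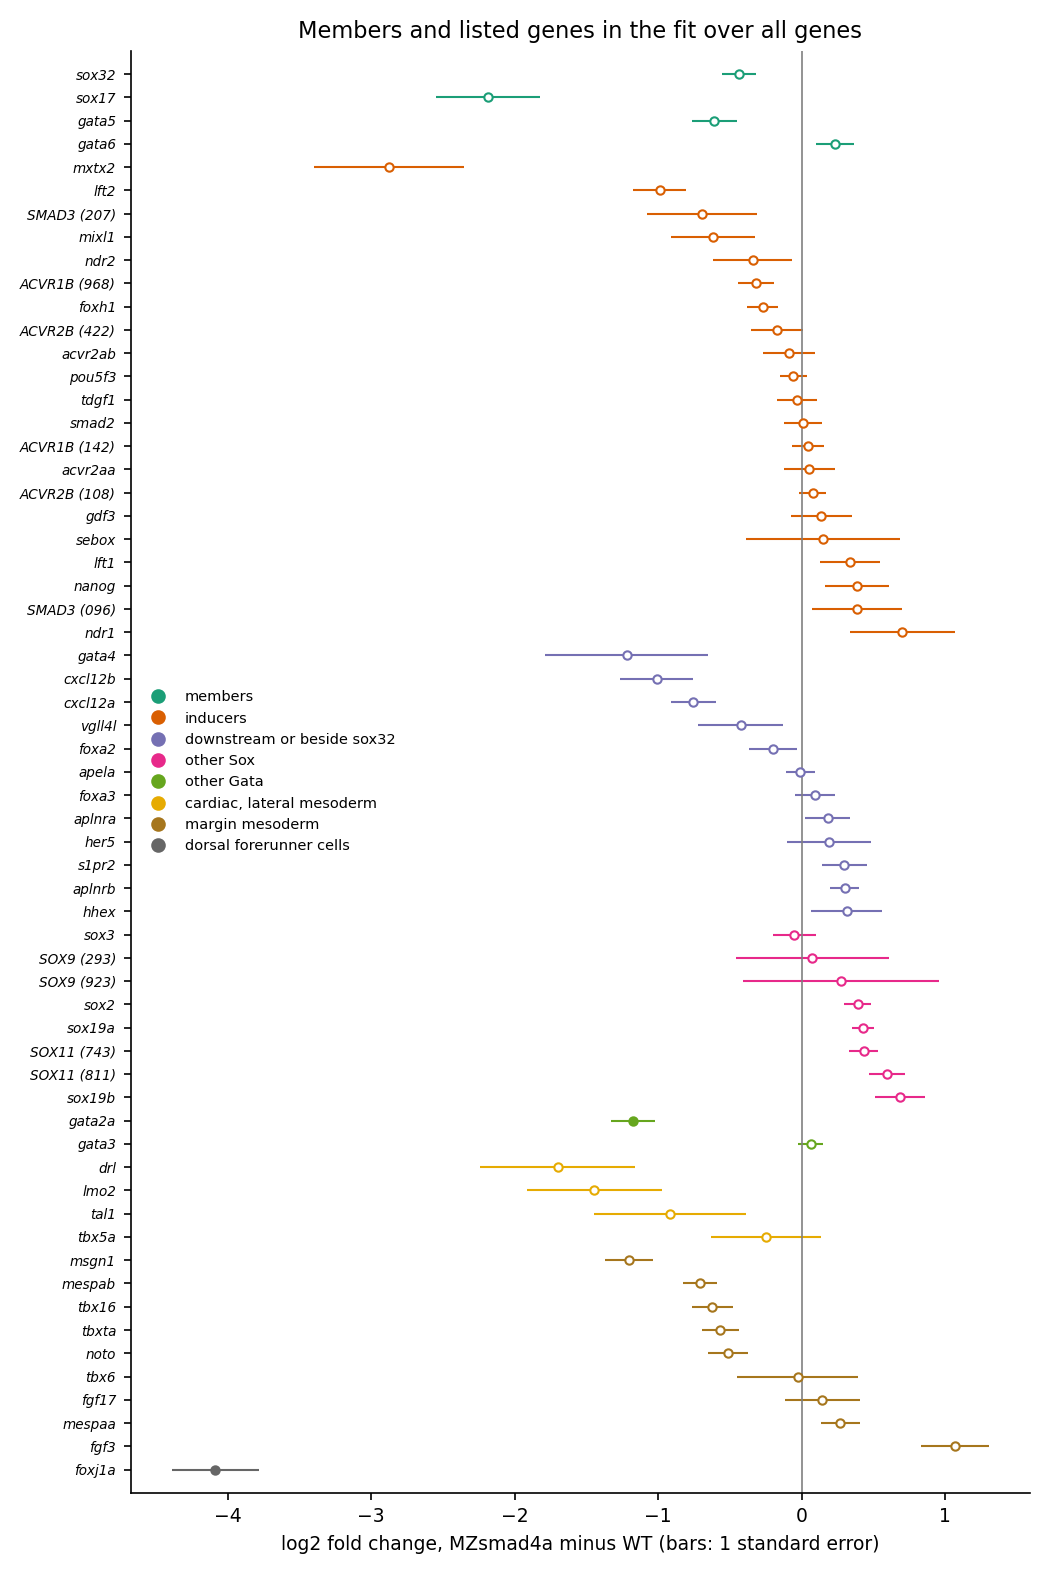
Log2 fold change (MZsmad4a minus WT, with 1 standard error) of the members and of tested list genes, from the edgeR fit over all genes. The yolk syncytial layer and enveloping layer lists are not drawn, apart from mxtx2, which is also in the inducer list. Filled points passed an adjusted p of 0.01, open points did not, colours give the list, and a number in brackets is the end of the identifier where a pair of genes shares a name. sox17 lies at -2.19 and the lowest gene listed downstream of or beside sox32, gata4, at -1.22, an order that turned without MZsmad4a replicate 1 (-1.85 and -2.00), and the filled points are gata2a and foxj1a.

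Markers of other cells that express the members, or that lie beside them at the margin, were read in the same libraries. Of 4 markers of dorsal forerunner cells, which share sox17 and sox32 with the endoderm, 2 were tested and 1 fell. foxj1a, the master regulator of motile cilia, was at 4.72, 5.06 and 4.58 CPM in WT and 0.231, 0.276 and 0.315 CPM in MZsmad4a (log2 fold change -4.09, standard error 0.31, edgeR adjusted p = 0.000775). The genotypes were far apart for foxj1a, which had 50 to 106 counts in WT and 4 to 6 counts in MZsmad4a. vgll4l, the other tested marker, had a log2 fold change of -0.43 (edgeR adjusted p = 0.524) with its lowest level, 17.8 CPM, in MZsmad4a replicate 1. dand5 and dnah9 were at 0.546 CPM or less in every library. The summed level of these 4 markers was 43.6 to 53.6 CPM in WT and 18.2 to 45.3 CPM in MZsmad4a. Most of this sum was vgll4l, at a mean of 42.9 CPM in WT against 4.79 CPM for foxj1a, so it hardly reflects foxj1a. The part of these markers in the lower sox17 was not tested.

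Of 11 margin mesoderm markers, which lie beside the endoderm, 9 were matched and tested, and edgeR called 0 lower and 0 higher at 0.01, with 5 lower and 1 higher at an unadjusted p under 0.05. DESeq2 called 2 lower and 1 higher, and limma 2 lower. msgn1, a bHLH factor of presomitic mesoderm, had a log2 fold change of -1.20 (edgeR adjusted p = 0.0105) and mespab one of -0.71 (edgeR adjusted p = 0.0214). With 1 library left out, the edgeR adjusted p of mespab was 0.0435 to 0.0894 and under 0.05 only without WT replicate 1, while that of msgn1 was 0.0112 to 0.0476. Every MZsmad4a library was below every WT library in 5 of the 9 markers and above in 2. Over all genes tested, 11.9% lay below and 11.8% above in this way. At an unadjusted edgeR p under 0.05, 8.82% of all genes tested were lower and 8.71% higher. The median log2 fold change of the list was -0.51, near the values of sox32 and gata5. The summed level was 1228 to 1473 CPM in WT and 772 to 1031 CPM in MZsmad4a. Most of this sum was tbxta and tbx16, at means of 574 and 565 CPM in WT and 387 and 367 CPM in MZsmad4a. It therefore says little about the other markers. The 2 markers that lay above were fgf3 and mespaa, with log2 fold changes of 1.07 and 0.27. The part of these markers in the lower sox32, gata5 and sox17 was not tested.

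The 8 markers of the yolk syncytial layer had a summed level of 637 to 755 CPM in WT and 616 to 955 CPM in MZsmad4a, with 0 called by edgeR at 0.01 in either direction, 1 lower at an unadjusted p under 0.05, 1 lower by DESeq2 and 0 by limma. The 9 markers of the enveloping layer had 8668 to 9810 CPM in WT and 9495 to 11042 CPM in MZsmad4a, with 0 called by edgeR in either direction, 1 higher at an unadjusted p under 0.05, 1 higher by DESeq2 and 0 by limma. Both summed ranges overlapped between the genotypes. Most of the yolk syncytial layer sum was hnf4a and slc26a1, at means of 257 and 156 CPM in WT. krt4 and krt8 made up most of the enveloping layer sum, at means of 2398 and 2733 CPM in WT. The sums therefore say little about the other markers, such as mxtx2. mxtx2, vgll4l and gata4 each stand in a pair of lists and are counted in both.

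Genes with a symbol and a mean of at least 5 CPM were ranked by how closely their log2 CPM followed each member over the 6 libraries, as a description of 8083 genes in libraries that fall into 2 genotypes. The closest to sox17 were UBA2, POFUT1 and JPT2, with Pearson's r of 0.998, 0.994 and 0.994. For sox32 they were ZBTB22, LRPPRC and PRAF2, with r of 0.992, 0.983 and 0.983. For gata5 they were SNX25, zgc:171901 and MFSD14A, with r of 0.991, 0.990 and 0.987, and for gata6 LRCH3, slco1d1 and rorca, with r of 0.989, 0.988 and 0.986. No gene was among the closest 3 of more than 1 member. Pearson's r takes no account of the size of a change. The log2 fold changes of UBA2, POFUT1 and JPT2 were -0.27, -0.48 and -0.43, against -2.19 for sox17. That of PRAF2 was -1.26, against -0.44 for sox32.

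The log2 fold changes of the members kept their sign under every alternative that was run. sox32 lay between -0.54 and -0.33, sox17 between -2.54 and -1.85, gata5 between -0.75 and -0.48 and gata6 between 0.12 and 0.33. The order of the 4, with sox17 lowest and gata6 highest, was the same in each of these fits, and gata5 was lower than sox32 in all of them.

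**Figure D4:**
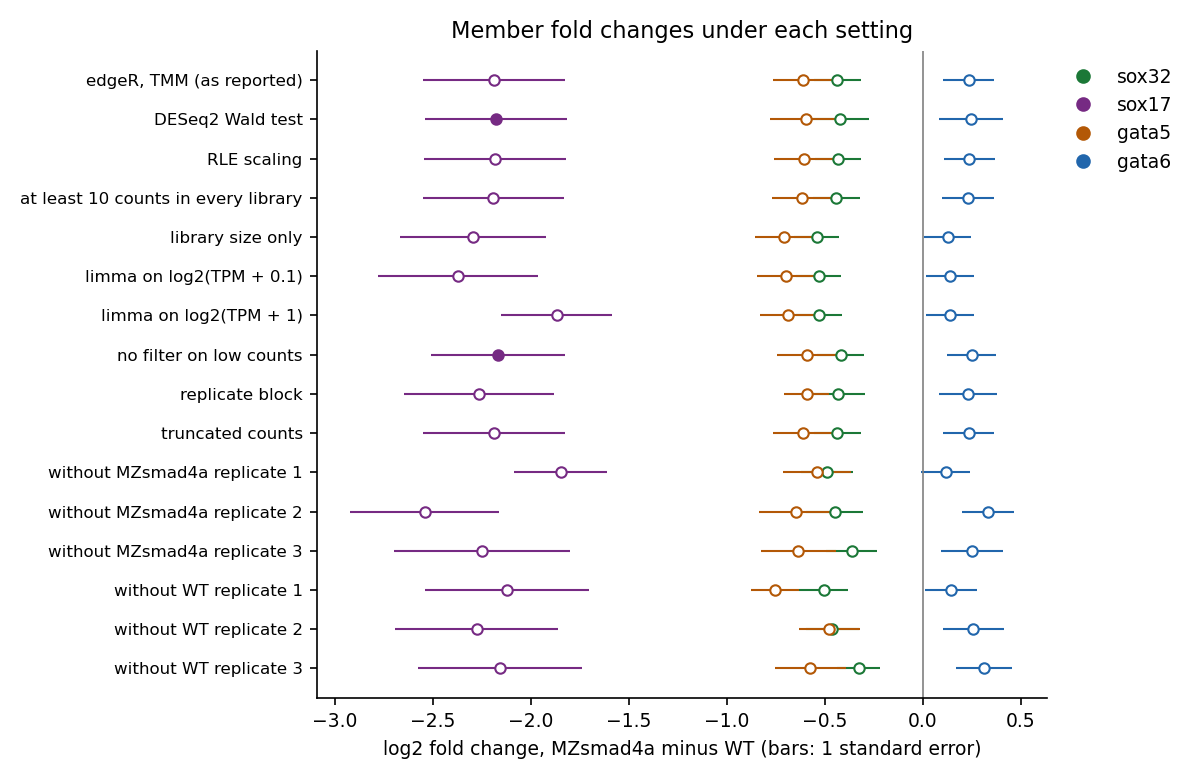
Log2 fold change (MZsmad4a minus WT, with 1 standard error) of each member under the reported fit and 15 alternatives. Filled points passed an adjusted p of 0.01. sox17 is filled under DESeq2 and with no filter on low counts, and stays between -2.54 and -1.85, while sox32, gata5 and gata6 are open throughout.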

How the data were processed

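Bulk RNA-seq libraries from 3 WT and 3 MZsmad4a pools of 25 embryos were analysed, grouped by the genotype and replicate number in the sample labels. The authors made the libraries with the KAPA mRNA HyperPrep kit, sequenced read pairs on an Illumina HiSeq, demultiplexed with bcl2fastq 2.20.0, trimmed with cutadapt, mapped to GRCz11 by STAR using gene models of Ensembl release 95, and quantified with RSEM. The authors deposited an expected count for each gene, which is not normalized, and its TPM, which corrects for transcript length and sums to the same total in each library. RSEM shares reads that fit several genes, so expected counts can be fractional, and 86.8 to 88.5% of the values above 0 were exactly whole as written, with 2 decimals.

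Rounded expected counts were compared between genotypes in R 4.3.3 by the quasi-likelihood test of edgeR 4.0.16, after filterByExpr and TMM scaling, with no other covariate. P-values were adjusted by Benjamini-Hochberg over 15723 genes and called at 0.01. The log2 CPM used a prior count of 2. Alternatives used DESeq2 1.42.0, limma 3.58.1, the replicate number as a block, other scalings, filters and thresholds, and leaving out each library. Ratios were compared by exact permutation tests in Python 3.11.15. The depth was 9807865 to 20833491 expected counts a library. Counts for 15723 genes were simulated with dispersions that edgeR had estimated from these libraries, and only genes above a minimum count were changed. edgeR recovered 23 of 100 genes changed by 1 on the log2 scale and 75 of 100 changed by 2, with 3 false calls. DESeq2 recovered 55 and 88, with 21 false calls. Since the dispersions came from edgeR, this is not a neutral comparison of the tools.

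The members and the gene lists were chosen with earlier results of these data known. Genes were named by a rule. It took the members, list genes past an adjusted p of 0.05, a fixed set of pathway genes (ndr1, ndr2, mixl1, eomesa, foxh1, tdgf1, foxa2, foxa3, cxcr4a, sox7, sox18 and gata4), smad4a, and the 3 genes most like each member. cxcl12a, cxcl12b, drl, lmo2, hand2, nkx2.5, gata3, dand5, dnah9, vgll4l, lft1, tbxta, tbx16, fgf3 and mespaa were named after their values were seen. So were tbx5a, tal1, hnf4a, slc26a1, krt4 and krt8. Symbols came from a table of identifiers, which named 26433 of 32266 genes and matched 91 of 95 entries of the lists. eomesa, cxcr4a, fgf8a and wnt8a were not matched, because several identifiers share the name. FPKM values were not used here.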

Additional observations from a re-analysis of the deposited data

How the results depend on the processing

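The log2 fold change of sox17 passed the threshold under DESeq2 (-2.18), with no filter on low counts (-2.17) and at an adjusted p of 0.05 (-2.19), and under no other of its 16 alternatives. sox32, gata5 and gata6 kept their direction and their side of the threshold under all 16. Of these, 1 is the reported fit read at 0.05, in which the direction could not change. The other fits were read at 0.01. gata5 was under 0.05 with DESeq2 (adjusted p = 0.0237), limma on log2(TPM + 1) (adjusted p = 0.0494) and without WT replicate 1 (edgeR adjusted p = 0.0348). With library size only, gata5 (edgeR adjusted p = 0.0401) and sox32 (edgeR adjusted p = 0.0493) were under 0.05. With 1 library left out, the log2 fold changes were -0.51 to -0.33 for sox32, -2.54 to -1.85 for sox17, -0.75 to -0.48 for gata5 and 0.12 to 0.33 for gata6, and the differences of the ratios were -2.15 to -1.34, 0.01 to 0.26 and 0.64 to 0.96 for sox17 to sox32, sox32 to gata5 and gata6 to gata5. Library size alone moved the median of all genes by -0.11.

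The genes called lower and higher numbered 77 and 35 as reported, 343 and 315 under DESeq2, 167 and 117 with no filter, 263 and 198 at an adjusted p of 0.05, 43 and 21 with at least 10 counts in every library, and 16 to 47 and 8 to 29 with 1 library left out. Fewer samples enter the last of these fits, and for the others the cause was not tested.

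Whether the replicate numbers pair the libraries was not settled. Deviations from the genotype means correlated at 0.11, -0.03 and 0.14 between libraries of the same number. WT replicates 1 and 3 correlated best with their own number, and WT replicate 2 did not. With the replicate block the members had log2 fold changes of -0.43, -2.27, -0.59 and 0.23 for sox32, sox17, gata5 and gata6, with edgeR adjusted p of 0.202, 0.0514, 0.0729 and 0.499. At the threshold of 0.05 the block ended the call of sox17 and those of lft2 (0.0526), sox19a (0.0621) and mespab (0.0535). The block left 22 genes called lower and 7 higher, and gata2a and foxj1a were at edgeR adjusted p of 0.0372 and 0.0102. The ratios were not fitted with the block but compared by pairs of the same number. By arithmetic, pairing leaves the mean difference of a ratio unchanged, so this says nothing of its robustness. For sox17 to sox32 all 3 pairs had the same direction, which any pairing would give because the genotypes did not overlap. The exact paired p was 0.25, no smaller value being possible with 3 pairs, so it cannot show a weaker difference.

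The alternatives were applied to genes of the lists after the data were seen. Signs turned for tdgf1 (-0.13 to 0.11 with 1 library left out, positive without MZsmad4a replicate 1 or WT replicate 2), foxa3 (-0.0062 with library size only, and -0.041 without WT replicate 1 to 0.19 without WT replicate 2) and CXCR4 ENSDARG00000057633 (-0.60 to 0.11 with 1 library left out, positive without MZsmad4a replicate 1). None of these genes was called. mxtx2, foxj1a and gata4 gave no value with at least 10 counts in every library. With 21 to 68 counts of sox17 in a MZsmad4a library, depth limits how precisely its level is known there.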
